A study of Mus musculus with 6 samples.

Results

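In C2C12, a line of mouse myoblasts that form myotubes in low serum, 7 chosen genes of double-stranded RNA sensing were examined. They are called sensor genes below, although Mavs is an adaptor and the list is not complete. They were fixed by name as Tlr3, Ddx58, Ifih1, Dhx58, Eif2ak2, Zbp1 and Mavs, and all 7 were represented on the array, by 10 of its 39429 probes. After a filter on dim probes all 7 remained, among 28553 features that comprised 18633 named genes and 9920 unnamed probes. The cells had been grown in 10% fetal bovine serum and transfected either with a control siRNA (small interfering RNA) named si-NC or with si-SYISL, which targets a long non-coding RNA called SYISL, and 3 arrays were hybridised for each. They were then held for 2 days in medium with 2% horse serum, and their total RNA was hybridised to single-colour Agilent arrays. Both groups therefore received a transfected double-stranded RNA, and no untransfected cells were among the samples, so every value below compares 1 siRNA with another. No probe was assigned to SYISL here, so its level was not analysed. The labels name neither siRNA sequence and do not say whether replicates were separate cultures.

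Within each group, replicates 1 and 3 agreed to within the scatter of repeated spots. Over 399 probes printed at 10 or more spots, chi-square per probe was 0.260 between si-NC replicates 1 and 3 and 0.219 between si-SYISL replicates 1 and 3, against 25.0 to 166 in the other 13 pairs of arrays. The deviations of single spots from their probe mean also correlated across these 2 pairs, with r of 0.86 and 0.79 over spots, against 0.26 to 0.43 elsewhere. They were therefore merged into 1 sample, called the merged sample below, and each group had 2 samples. The p-values measure only the spread of these samples, which may be technical. On si-NC arrays 78.2% to 84.6% of spots read well above background, and on si-SYISL arrays 87.9% to 90.6% did. The 8 skeletal muscle markers checked, among them Myog, Des and Myh3, were above background on all arrays of both groups.

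Cells detect double-stranded RNA in several compartments. RIG-I (Ddx58) and MDA5 (Ifih1) are cytosolic helicases that signal through the mitochondrial adaptor Mavs to the interferon genes, and LGP2 (Dhx58) is a related helicase that lacks their signalling domains and modulates them. Toll-like receptor 3 (Tlr3) reads double-stranded RNA in endosomes, the kinase PKR (Eif2ak2) halts translation when it binds such RNA, and Zbp1 binds left-handed nucleic acid helices and can start cell death. Several of these genes are themselves induced by interferon, through the interferon-stimulated response element (ISRE) in their promoters.

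Promoter windows, from 250 bases before to 50 after the annotated start, were held for 5 of the 7 genes in RefSeq's annotation of GRCm38.p6 (Tlr3, Ddx58, Ifih1, Eif2ak2 and Mavs). The ISRE core was searched on both strands as GAAA, any 2 bases, and GAAA again. It was found in the windows of Ddx58, Ifih1 and Eif2ak2, which are shown because the first 2 genes were higher with si-SYISL and Eif2ak2 was not. The Ddx58 window is chr4:40239776-40240075, that of Ifih1 is chr2:62646206-62646505 and that of Eif2ak2 is chr17:78882523-78882822, all on the minus strand and printed 5′ to 3′ in the direction of the gene. Capitals mark the ISRE core, which starts 2 bases past the annotated start base in Ddx58, on the opposite strand, 32 bases past it in Ifih1 and 18 bases past it in Eif2ak2.
Ddx58: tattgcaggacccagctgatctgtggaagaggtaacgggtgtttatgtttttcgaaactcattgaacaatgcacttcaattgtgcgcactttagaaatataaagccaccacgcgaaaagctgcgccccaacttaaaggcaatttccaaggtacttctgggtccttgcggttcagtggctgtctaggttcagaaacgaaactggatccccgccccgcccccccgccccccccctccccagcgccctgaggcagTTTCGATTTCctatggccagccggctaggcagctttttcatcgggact
Ifih1: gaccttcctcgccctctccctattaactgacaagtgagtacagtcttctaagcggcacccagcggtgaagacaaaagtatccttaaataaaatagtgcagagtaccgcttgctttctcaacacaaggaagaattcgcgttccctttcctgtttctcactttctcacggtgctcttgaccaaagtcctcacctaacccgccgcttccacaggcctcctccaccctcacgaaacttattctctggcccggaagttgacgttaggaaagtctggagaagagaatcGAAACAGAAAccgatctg
Eif2ak2: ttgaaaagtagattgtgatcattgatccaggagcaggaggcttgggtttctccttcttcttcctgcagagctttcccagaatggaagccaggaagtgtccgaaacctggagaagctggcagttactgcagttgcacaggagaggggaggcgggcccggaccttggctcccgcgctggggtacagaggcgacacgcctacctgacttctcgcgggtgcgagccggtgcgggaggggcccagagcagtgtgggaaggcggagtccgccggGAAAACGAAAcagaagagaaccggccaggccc
Of 32851 such windows in the annotation, 3.44% hold the core. A match is a description of these letters and not evidence of a bound factor.

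When SYISL was targeted and the cells were set against the si-NC control, 3 of the cytosolic sensors and Zbp1 had higher signals with si-SYISL, Mavs was close to the median of all features, and Tlr3 and Eif2ak2 were lower relative to that median. None of the 7 passed limma's test over all features at an adjusted p of 0.05, where 0 of 28553 features did (0.0%). The lowest adjusted p was 0.0842. At an unadjusted p under 0.05, 4 of the 7 were higher and 0 lower, beside 16.8% and 5.86% of all features. For 5 of the 7 genes the si-SYISL samples were both higher than the si-NC samples (46.3% of all features), and for 1 both were lower (15.8%). As single arrays, the 3 si-SYISL values exceeded all si-NC values for 5 genes (42.0%) and were below them for 0 (15.0%). With each sample centred on its median, the si-SYISL samples were both higher for 4 genes (34.0%) and both lower for 2 (21.3%). Signals are given below as a percentage of each array's 75th percentile, which allows arrays to be compared for 1 probe but not probes with each other. The median log2 difference of all features was 0.16, and 0.03 after quantile normalisation. Log2 differences are therefore si-SYISL minus si-NC relative to that median, ± the SE from limma (n = 2 per group). The adjusted p-values refer to the difference before that median was taken off.

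**Figure D1:**
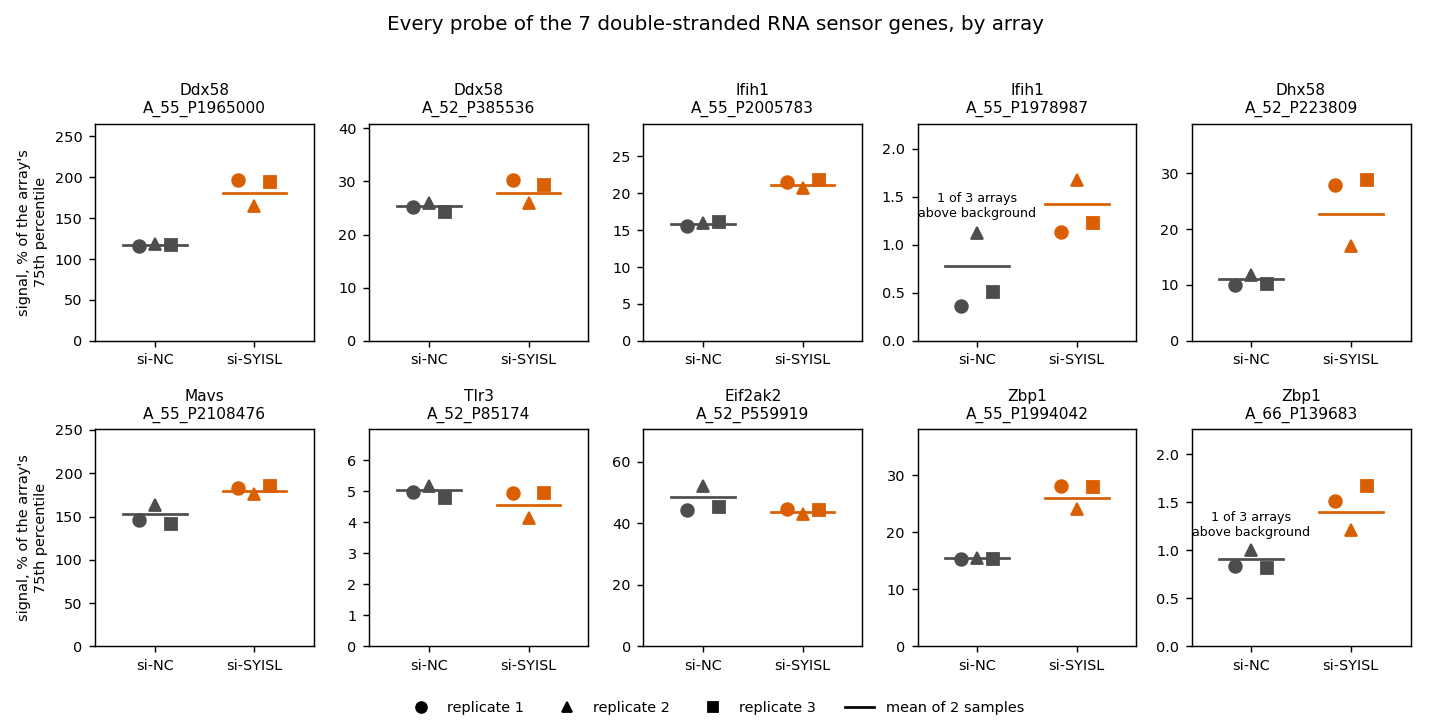
Signal of each of the 10 probes of the 7 genes, in percent of the array's 75th percentile (linear axis from 0), for the 3 si-NC arrays (grey) and the 3 si-SYISL arrays (orange), with symbols for replicates and a line at the mean of the 2 samples. The si-SYISL arrays lie above all si-NC arrays at the main probes of Ddx58, Ifih1, Dhx58, Mavs and Zbp1, and among the si-NC arrays the dim probes of Ifih1 and Zbp1 were above background on 1 of 3 only.

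Among the cytosolic helicases, Ddx58, the RIG-I gene, gave 115%, 119% and 118% with si-NC (replicates 1, 2 and 3) and 197%, 165% and 194% with si-SYISL. No si-SYISL array overlapped the si-NC arrays, and replicate 2 was the lowest of the si-SYISL arrays. The group means were 118 ± 1.71% and 180 ± 21.5% (SD, n = 2), and the log2 difference was 0.45 ± 0.13 (adjusted p = 0.140, limma). At the second Ddx58 probe the arrays did not overlap either, but by a small margin, with 24.3% to 25.9% for si-NC and 26.0% to 30.3% for si-SYISL. Relative to the median of all features its difference was -0.03, against 0.45 for the first probe, although both probes were assigned to Ddx58. Their SEs, from the fit of every probe, were 0.13 and 0.14. The difference of the gene was 0.21 as the mean of its probes and 0.29 without the merged si-SYISL sample.

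Ifih1, which encodes MDA5, gave 15.5%, 16.0% and 16.1% with si-NC and 21.5%, 20.6% and 21.8% with si-SYISL. The groups did not overlap, and the samples within each group were close, at 15.9 ± 0.134% and 21.1 ± 0.692% (SD, n = 2). The log2 difference was 0.25 ± 0.11 (adjusted p = 0.158). A dimmer Ifih1 probe was above background on only 1 of the 3 si-NC arrays and on all 3 si-SYISL arrays, with signals of 0.365% to 1.13% and 1.13% to 1.67%. The difference of the gene was 0.55 as the mean of its probes, a value that includes this dim probe.

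Dhx58, the LGP2 gene, differed most among the 7. It gave 10.0%, 11.9% and 10.2% with si-NC and 28.0%, 17.01% and 28.8% with si-SYISL. All si-SYISL arrays were above the si-NC arrays, but replicate 2 lay well below the other two, and the si-SYISL mean was 22.7 ± 8.04% (SD, n = 2), with an SD of 1.24% in the si-NC group. The log2 difference was 0.84 ± 0.28 (adjusted p = 0.166), a fold of 1.79 relative to the median, and 96.4% of all features had a lower difference. It was 0.44 without the merged si-SYISL sample and 1.26 with only that sample in the group.

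Mavs, the adaptor on which RIG-I and MDA5 converge, gave 145%, 163% and 142% with si-NC and 182%, 176% and 186% with si-SYISL. The groups did not overlap before the median shift was taken off, yet relative to the median the difference was 0.07 ± 0.12 (adjusted p = 0.311). That sign rested on 1 sample, since the difference was -0.029 without the merged si-NC sample. It was 0.21 with quantile normalisation and 0.18 without si-NC replicate 2.

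For Tlr3, the endosomal sensor, signals were 4.97%, 5.18% and 4.78% with si-NC and 4.94%, 4.15% and 4.94% with si-SYISL, and the groups overlapped. The difference was -0.31 ± 0.14 relative to the median (adjusted p = 0.510). It was -0.14 with si-SYISL replicate 2 left out and -0.47 with only that replicate in the group.

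Eif2ak2, the PKR gene, gave 44.3%, 52.2% and 45.4% with si-NC and 44.6%, 43.0% and 44.4% with si-SYISL. As single arrays the groups overlapped by a small margin, and as samples both si-SYISL values were lower. The means were 48.5 ± 5.19% and 43.7 ± 1.09% (SD, n = 2), and the log2 difference was -0.31 ± 0.13 relative to the median (adjusted p = 0.497). The difference was -0.19 with quantile normalisation and -0.18 without si-NC replicate 2.

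Zbp1, the sensor of left-handed helices, had the smallest p of the 7. It gave 15.4%, 15.5% and 15.2% with si-NC and 28.2%, 24.0% and 28.0% with si-SYISL, with no overlap. The means were 15.4 ± 0.134% and 26.1 ± 2.84% (SD, n = 2), the log2 difference was 0.59 ± 0.13 (adjusted p = 0.122), and 2.74% of all features had a smaller p. A dim probe of Zbp1 was above background on 1 of 3 si-NC arrays and all 3 si-SYISL arrays. It gave 0.817% to 0.999% and 1.21% to 1.67%, and since it was kept only through the si-SYISL arrays, no test is given for it.

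**Figure D2:**
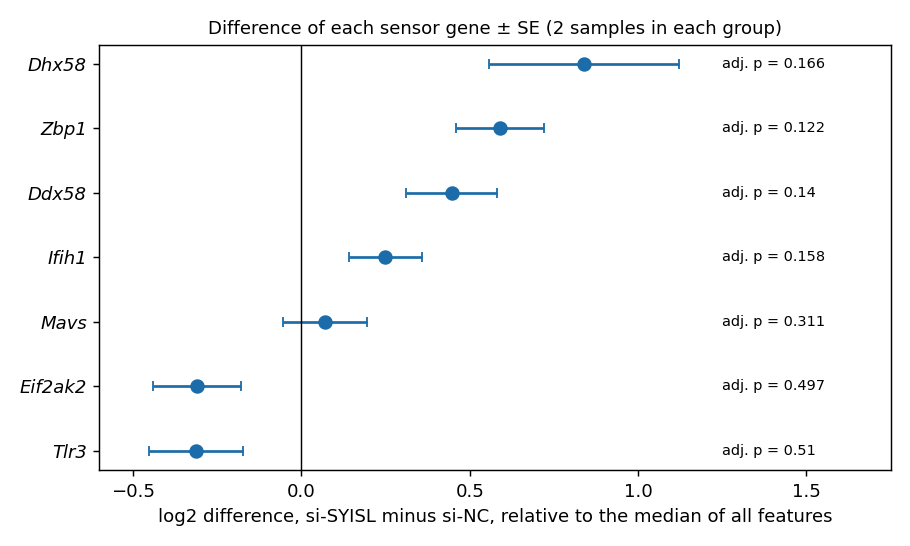
Log2 difference of each of the 7 genes, si-SYISL minus si-NC relative to the median of all features (x axis, log2 units), with limma's SE as bars and the adjusted p over all features at the right. The values run from -0.31 for Tlr3 and Eif2ak2 to 0.84 for Dhx58, and no adjusted p is below 0.122.

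When the 6 arrays were treated as 6 samples, which counts replicates 1 and 3 as independent, limma called 5 of the 7 genes higher (Ddx58, Ifih1, Dhx58, Zbp1 and Mavs) and 0 lower, beside 24.8% and 9.37% of all features (34.2% in either direction). Other settings that called features, in either direction, called 0 of the 7. They called 0.641% of features with normexp background and 3.17% with a variance trend and robust prior. With the scan as a covariate and the sample as a random block over the 6 arrays, they called 0.291%. They called 0.967% without si-NC replicate 2 and 4.84% without the merged si-NC sample. The arrays came from 2 scans, replicates 1 and 2 of both groups from the first and replicate 3 from the second. Because replicates 1 and 3 agreed within spot scatter, the first scan repeats both samples of each group and the second only the merged sample. Neither scan is therefore independent of the main comparison. Within the first scan the differences were 0.46 for Ddx58, 0.26 for Ifih1, 0.84 for Dhx58, 0.05 for Mavs, -0.33 for Tlr3, -0.30 for Eif2ak2 and 0.59 for Zbp1. Within the second scan, with 1 array in each group and no test, they were 0.63, 0.34, 1.40, 0.29, -0.05, -0.13 and 0.78 in the same order.

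Samples of the same group also differed in the sensor genes. In the si-SYISL group all 7 were higher in the merged sample than in replicate 2, relative to the median of all features, with a median of 0.31 on the log2 scale. For Dhx58 that gap was 0.83, and 99.5% of features had a lower one. In the si-NC group all 7 were lower in the merged sample, with a median of -0.08 and a range from -0.23 for Dhx58 to -0.01 for Ifih1. The SD of this gap over all features was 0.41 in the si-NC group and 0.30 in the si-SYISL group. Ddx58, Ifih1 and Zbp1 lay near the middle of all features in the si-NC group, with 45.1% to 47.5% of features lower. Over the 4 samples, the closest pair of centred profiles was Ddx58 and Zbp1, with a root mean square difference of 0.07 (log2), followed by Tlr3 and Eif2ak2 at 0.08. Dhx58 and Eif2ak2 were the farthest apart, at 0.62.

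**Figure D3:**
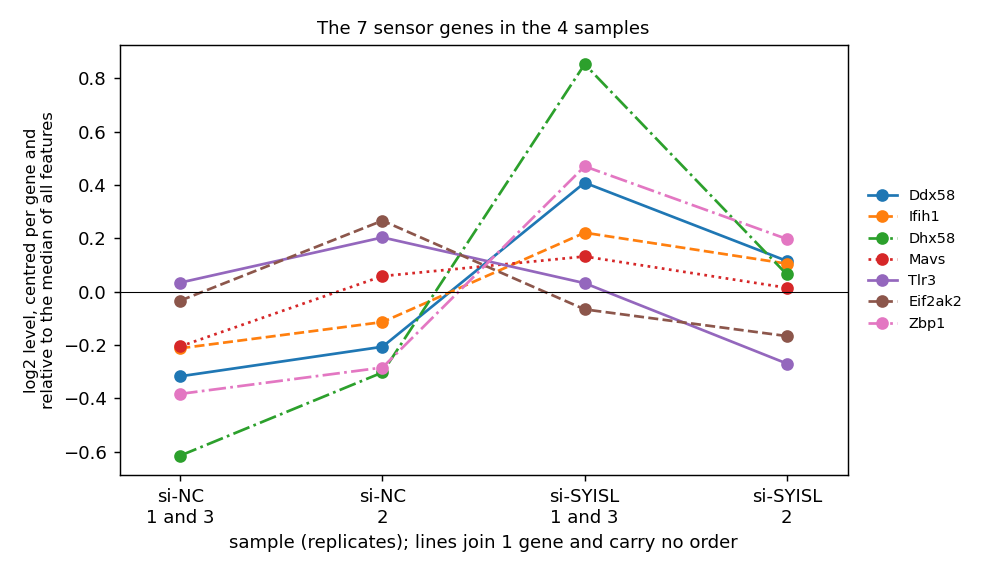
Log2 level of each of the 7 genes in the 4 samples, centred per gene and relative to the median of all features (y axis, log2 units). Dhx58 runs from -0.61 in the merged si-NC sample to 0.85 in the merged si-SYISL sample, and Tlr3 and Eif2ak2 are lowest in si-SYISL replicate 2.

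The named genes whose pattern lay closest to the mean of the 7 were Col8a1, a collagen gene, Wdr31 and Dpm3, a subunit gene of dolichol-phosphate mannose synthase. Their root mean square differences from that mean were 0.007, 0.009 and 0.012 (log2) over 4 samples. Of the sensors themselves, Ifih1 was nearest at 0.07, and 540 features were closer than it, so many features lay that close over 4 samples. A second Wdr31 probe, also above background on all arrays, differed by 0.60 relative to the median of all features, against 0.23 for the probe used.

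Downstream of the sensors lie adaptors, kinases and transcription factors. Of 19 listed genes 5 had both si-SYISL samples above both si-NC samples (46.3% of all features) and 3 below (15.8%). Their median difference was -0.13. This median was -0.016 with the mean of each gene's probes, -0.047 with quantile normalisation and -0.039 without si-SYISL replicate 2. At an unadjusted p under 0.05, 1 was higher and 2 lower, beside 16.8% and 5.86% of all features. These shares of all features, for both samples and for unadjusted p, apply to each list below. Irf7, the interferon-induced factor that drives the interferon alpha genes, gave 1.99%, 2.28% and 1.76% with si-NC and 5.26%, 3.65% and 4.96% with si-SYISL, a difference of 0.90 ± 0.22 (adjusted p = 0.130). With normexp background it was 0.46. Irf3, the factor already present in resting cells, gave 368% to 393% and 390% to 430% and differed by -0.07 ± 0.12, with 0.03 after quantile normalisation. Ticam1, the adaptor of Tlr3, differed by 0.07 ± 0.23, and by -0.16 without the merged si-SYISL sample. Ikbkg, the regulatory subunit of the IKK complex, was lower at both its probes (-0.53 and -0.58 ± 0.12, adjusted p = 0.168 for the latter).

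Regulators that switch the sensors on or off had a median of -0.18, with 4 of 15 higher in both samples and 5 lower, and 0 higher and 2 lower at an unadjusted p under 0.05. Those 2 were Itch (-0.74 ± 0.20, adjusted p = 0.208), a ubiquitin ligase that targets Mavs for degradation, and Nlrc5 (-0.59 ± 0.11, adjusted p = 0.159), with -0.28 at a second Nlrc5 probe. Adar, which edits double-stranded RNA and keeps it from MDA5, differed by 0.10 ± 0.15, with 0.15 at its second probe, and by -0.09 without the merged si-SYISL sample.

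The oligoadenylate synthetases, enzymes that double-stranded RNA activates, had a median of 0.25 over 10 measured of 13 listed genes, with 6 higher in both samples and 2 lower, and 4 higher and 0 lower at an unadjusted p under 0.05. Oas3 gave 3.04% to 3.64% with si-NC and 5.37% to 5.72% with si-SYISL, without overlap (0.58 ± 0.14, adjusted p = 0.123, and 0.35 with normexp background). Oas1c gave 0.509% to 0.672% with si-NC, above background on 1 of 3 arrays, and 1.32% to 1.89% with si-SYISL, above background on all 3. Oas1c belongs to a cluster of near-identical genes, and its probe may read several of them. Of the 10 genes, 2 were kept only through the si-SYISL arrays (Oas1c and Oas1e, the latter named after its values were seen). Over the 8 genes above background on all arrays the median was 0.11, with 4 higher and 2 lower in both samples and 3 higher at an unadjusted p under 0.05. Over all 10 the median was 0.07 with quantile normalisation and 0.12 without the merged si-SYISL sample.

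Sensors of single-stranded RNA and of DNA had a median of 0.02 over 13 genes. This median was -0.086 without si-NC replicate 2 and -0.014 without the merged si-SYISL sample. Of these genes 7 were higher in both samples and 1 lower, beside 46.3% and 15.8% of all features. With 3 higher and 1 lower at an unadjusted p under 0.05, the shares of all features were 16.8% and 5.86%. Sting1, the adaptor of the DNA sensor cGAS, gave 102%, 124% and 103% with si-NC and 194%, 184% and 198% with si-SYISL, with no overlap (0.59 ± 0.15, adjusted p = 0.127). Samhd1, a nuclease and dNTPase that restricts viruses, differed by 0.37 ± 0.11 (adjusted p = 0.128) and by 0.35 at its second probe.

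The interferon beta gene Ifnb1, the main product of Mavs signalling, was above background on 0 of 3 si-NC arrays and 1 of 3 si-SYISL arrays, and was therefore not tested. Interferons, their receptors and receptor signalling had a median of -0.02 over 13 measured of 17 listed genes. Both samples were higher for 5 and lower for 2 (46.3% and 15.8% of all features). At an unadjusted p under 0.05, 2 were higher and 0 lower (16.8% and 5.86% of all features). The sign of the list median changed with the scaling, to 0.02 with quantile normalisation. Irf9, a transcription factor of interferon receptor signalling, gave 110% to 120% and 163% to 244% (0.62 ± 0.23, adjusted p = 0.171), with si-SYISL replicate 2 the lowest of its group. Irf9 differed by 0.30 without the merged si-SYISL sample and by 0.96 without si-SYISL replicate 2.

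Interferon-stimulated effectors had the highest median of the 9 pathway lists, 0.42 over 25 measured of 27 listed genes, with 19 higher in both samples and 2 lower, and 14 higher and 1 lower at an unadjusted p under 0.05. Of these genes 2 were kept only through the si-SYISL arrays (Ifi44 and Cmpk2, named after their values were seen), and over the other 23 the median was 0.41, with 12 higher and 1 lower at that p. The 1 lower was Rsad2, named after its values were seen, at 9.98% to 10.7% with si-NC and 5.98% to 7.37% with si-SYISL. Its difference was -0.82 ± 0.15 (adjusted p = 0.141, limma). The list was written with earlier results of these data known and is not independent evidence of its direction. Isg15, a ubiquitin-like modifier, gave 23.7%, 28.5% and 23.9% with si-NC and 84.5%, 40.1% and 83.3% with si-SYISL (0.99 ± 0.39, adjusted p = 0.198). Ifit1, which binds foreign RNA ends, gave 22.3%, 41.6% and 22.1% with si-NC and 90.6%, 43.1% and 91.8% with si-SYISL, so that replicate 2 of both groups lay close together (0.88 ± 0.49, adjusted p = 0.274). Without the merged si-SYISL sample the differences were 0.43 for Isg15 and 0.31 for Ifit1, and Ifit1 differed by 0.42 without the merged si-NC sample. A second Isg15 probe differed by 1.34. Isg20 (0.61 ± 0.12, adjusted p = 0.116) and Gbp2 (0.55 ± 0.12, adjusted p = 0.121) ranked first by p in the list and varied less between samples. The median of the list was 0.21 without the merged si-SYISL sample and 0.67 with only that sample.

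**Figure D4:**
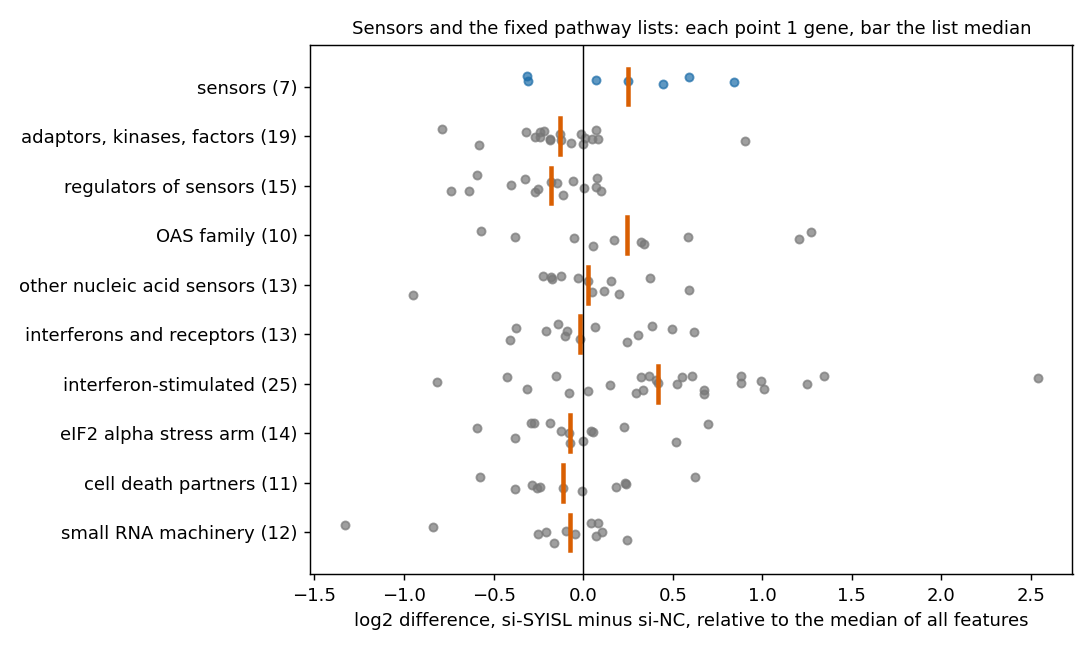
Log2 difference of each gene, si-SYISL minus si-NC relative to the median of all features (x axis, log2 units), for the 7 sensors (blue) and 9 pathway lists (grey), with the list median as an orange bar and the number of genes in parentheses. The sensors, at 0.25, and the interferon-stimulated effectors, at 0.42, lie to the right of 0, while the downstream adaptors and kinases lie at -0.13 (-0.016 with the mean of each gene's probes).

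On the PKR side, genes of the eIF2 alpha stress arm had a median of -0.08 over 14 genes. Both samples were higher for 5 and lower for 4 (46.3% and 15.8% of all features). At an unadjusted p under 0.05, 2 were higher and 1 lower (16.8% and 5.86% of all features). Chac1, a stress target that degrades glutathione, gave 338%, 349% and 334% with si-NC and 767%, 505% and 769% with si-SYISL (0.70 ± 0.23, adjusted p = 0.161), and 0.37 without the merged si-SYISL sample. Eif2ak3, the PERK kinase gene of the endoplasmic reticulum, gave 220%, 244% and 219% and 155%, 189% and 156% (-0.59 ± 0.15, adjusted p = 0.208). The median of the list was 0.01 with quantile normalisation and 0.06 without si-SYISL replicate 2.

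Cell death partners of Zbp1 and Mavs had a median of -0.11 over 11 genes. This median was -0.046 with normexp background and -0.039 without si-SYISL replicate 2. Both samples were higher for 5 and lower for 2, near the 46.3% and 15.8% of all features. At an unadjusted p under 0.05, 3 were higher and 0 lower (16.8% and 5.86% of all features). Ripk3, the kinase that Zbp1 recruits for necroptosis, gave 6.39%, 7.62% and 6.31% with si-NC and 13.4%, 11.1% and 12.7% with si-SYISL, without overlap (0.63 ± 0.16, adjusted p = 0.130). Gsdmd, the pore-forming gasdermin, differed by 0.23 ± 0.13 (adjusted p = 0.2005), by 0.37 with quantile normalisation and by 0.12 without the merged si-SYISL sample.

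The small RNA processing and silencing machinery had a median of -0.07 over 12 genes. Both samples were higher for 5 and lower for 2, near the 46.3% and 15.8% of all features. At an unadjusted p under 0.05, 0 were higher and 2 lower (16.8% and 5.86% of all features). Tnrc6b, a partner of the Argonaute proteins in silencing, gave 23.3%, 21.5% and 23.0% with si-NC and 15.1%, 13.2% and 14.7% with si-SYISL (-0.84 ± 0.13, adjusted p = 0.125). Ago2, the Argonaute that cleaves siRNA targets, depended on the probe. Its brighter probe gave 114%, 176% and 116% with si-NC and 65.9%, 61.2% and 65.3% with si-SYISL (-1.33 ± 0.23, adjusted p = 0.129), while the other probe differed by 0.41. No direction can be given for Ago2 from these arrays. The median of the list was 0.05 with quantile normalisation and 0.04 without si-SYISL replicate 2.

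Promoter windows were held for 21 of the 27 interferon-stimulated effectors, and 47.6% of them contained the ISRE core, as did 3 of the 5 sensor windows. Across the measured genes, the median difference was 0.01 for 567 genes with the core and -0.03 for 14198 without it. Both si-SYISL samples were higher for 48.7% of the former and 44.0% of the latter.

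Markers of other cell types were read beside these results. Leukocyte and macrophage markers summed to 212% to 218% of the 75th percentile on si-NC arrays and 256% to 356% on si-SYISL arrays, and of 7 on the array, 6 were above background on all si-NC arrays and 7 on all si-SYISL arrays. Most of that gap came from Itgam, an integrin subunit gene, at 109% to 113% and 148% to 260%. The common leukocyte marker Ptprc differed by 0.19, Csf1r by -0.15 and Adgre1 by -0.07 relative to the median. Endothelial markers summed to 95.6% to 104% and 111% to 114%, and skeletal muscle markers to 2902% to 3285% and 4715% to 4856%. All these sums were taken before the median shift was removed, and they add probes whose signals cannot be compared with each other. Relative to the median of all features the 4 endothelial markers differed by 0.004 to 0.05. The median difference of the 8 muscle markers was 0.47, above that of every pathway list, but the markers were mixed. Relative to the median of all features 5 were higher and 3 lower, the latter Myod1 (-0.78), Myog (-0.02) and Des (-0.07). The part of these markers in the sensor values was not tested, and in bulk RNA more cells with a transcript and more RNA per cell cannot be told apart.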

How the data were processed

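Signals of 6 single-colour Cy3 arrays were analysed. The deposited scanner files hold intensity (gProcessedSignal), background-subtracted and detrended within each array by Feature Extraction 11.0.1.1, per the file headers (10.5.1.1 per the submitters' processing notes), with the median pixel intensity of spot and background. The deposited files also hold flags of 0 or 1 (unit other) for spots above background, saturated or outlying. 0 spots were saturated. The deposited series matrix holds log2 values with near-equal quantiles, taken as normalised by the authors, and was used as an alternative.

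From every log2 signal the 75th percentile of its array was taken off. Spots flagged as control or outlier were dropped, and repeated spots were averaged. Probes were named through RefSeq accessions (GRCm38.p6): 27234 of 39429 matched 20659 symbols. Probes passed if every array of 1 or both groups read them above background, and a gene was represented by its brightest kept probe. Groups were compared with limma 3.58.1 (lmFit, eBayes, two-sided, Benjamini-Hochberg over all features, threshold 0.05) in R 4.3.3 and Python 3.11.15 with pandas 2.3.3, numpy 2.4.6 and matplotlib 3.10.9. The fit was tested on simulated data. Alternatives were normexp on the median signals (offset 50), quantile or median scaling, the series matrix, other filters and probe rules, a variance trend, replicate or scan blocks, and leaving out replicates. The number of arrays limits the precision.

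The genes, lists and tests were chosen with earlier results of these data known. Named were the 7 genes, the 2 of each list with the smallest p and the 3 nearest patterns. Ifnb1, Ticam1, Irf3, Irf7, Adar, Isg15 and Ifit1 were also named by this rule. Besides markers, Oas1e, Ifi44, Cmpk2 and Rsad2 were named after their values were seen. Some genes that this rule selects are not reported here. Replicate numbers did not pair the samples: the deviations of the samples of replicates 1 and 3 from their group means correlated at -0.03 over features.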

Additional observations from a re-analysis of the deposited data

How the results depend on the processing

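Limma called 0 features with 2 samples in each group (6463 at an unadjusted p under 0.05). It called 9762 with the 6 arrays as 6 samples, 904 with a variance trend and robust prior and 183 with normexp background. With the scan as a covariate and the sample as a random block over the 6 arrays, it called 83. Between 0 and 1381 were called when replicates were left out. The counts were 276 without si-NC replicate 2 and 1381 without si-NC replicates 1 and 3. In these fits the lone sample is assumed to vary like the other group. Of the 7 sensors, 5 were called with 6 arrays and 0 under the other 20 settings. With the replicate number as a block 0 features and 0 sensors were called; the numbers did not pair the samples (r = -0.03 over 28553 features). All settings reuse these arrays, and many of the named genes were chosen for a small p, so a kept direction is partly built in. Of 692 gene differences under other settings, 684 kept their direction. The 8 others were Mavs at -0.029 without si-NC replicates 1 and 3, Ticam1 at -0.12 without si-NC replicate 2 and -0.16 without si-SYISL replicates 1 and 3, Adar at -0.092 without si-SYISL replicates 1 and 3, and Irf3 at 0.039 with normexp background, 0.033 with quantile normalisation, 0.035 with the series matrix and 0.047 without si-SYISL replicate 2; the cause was not tested. With single replicates left out, Ticam1 ranged from -0.12 to 0.32 and Irf3 from -0.072 to 0.047. The comparison within scan 1 was chosen after seeing the data and repeats both samples of each group. Signals near background limit the dim probes of Ifih1, Zbp1 and Oas1c.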
